A study of Mus musculus with 6 samples.

Results

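Nos2 and the arginine enzymes around it were examined as a group of genes set by name. The 6 described are Nos2, Gch1, Ass1, Asl, Odc1 and Slc7a2, all found among the 53465 gene rows of the count table. RNA with poly(A) tails was sequenced from EMT6, a carcinoma line of the BALB/c mouse mammary gland, grown in culture with no immune cells. PVITRO cells (3 libraries) had been kept for more than 4 weeks in medium with an isotype control antibody at 0.5 μg/ml. PTRVITRO cells (3 libraries) had been kept for the same time with anti-PD-L1, an antibody against the surface ligand PD-L1, at the same dose. The comparison asks whether long exposure of the tumor cells themselves to the antibody goes with another level of these transcripts. Each group is a cell population carried in culture rather than an animal, and the study describes replicates as technical unless stated otherwise. The p-values therefore measure the spread between libraries, which may be technical. Because the RNA is from bulk cultures, fewer cells that make a transcript and less transcript per cell cannot be told apart.

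Arginine stands at a branch point. Inducible nitric oxide synthase, encoded by Nos2, oxidizes arginine to nitric oxide and citrulline, needs tetrahydrobiopterin as a cofactor, and is best known from activated macrophages. Argininosuccinate synthase (Ass1) and argininosuccinate lyase (Asl) turn the citrulline back into arginine. Arginine is also a source of ornithine, and ornithine decarboxylase (Odc1) commits ornithine to the polyamines, which dividing cells need. Arginine enters cells through cationic amino acid transporters, of which Slc7a2 is one.

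None of the 5 genes with enough counts for a test passed it between PTRVITRO and PVITRO, and Slc7a2 had too few counts to be tested. CPM values (counts scaled to library size, with the upper quartile as the scaling factor) were 2.54 ± 0.221 (SD, n = 3) in PVITRO and 2.92 ± 0.417 (n = 3) in PTRVITRO for Nos2, the lowest of the 5 tested genes per length. Odc1 was the highest per length, with 673 ± 12.4 CPM in PVITRO and 727 ± 31.2 CPM in PTRVITRO. With edgeR's quasi-likelihood test, 0 of the 5 tested genes had a Benjamini-Hochberg adjusted p below 0.05 over all 14217 tested genes, of which 0.246% (35 genes) did. At an unadjusted p below 0.05 there were 2 of the 5 (Asl and Odc1), against 11.4% of all tested genes. DESeq2 and limma-voom each called 0 of the 5, with 1 (Odc1) at an unadjusted p below 0.05. The libraries of the groups did not overlap for 1 of the 5 (Odc1, higher in PTRVITRO), against 17.6% of all tested genes in either direction.

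**Figure D1:**
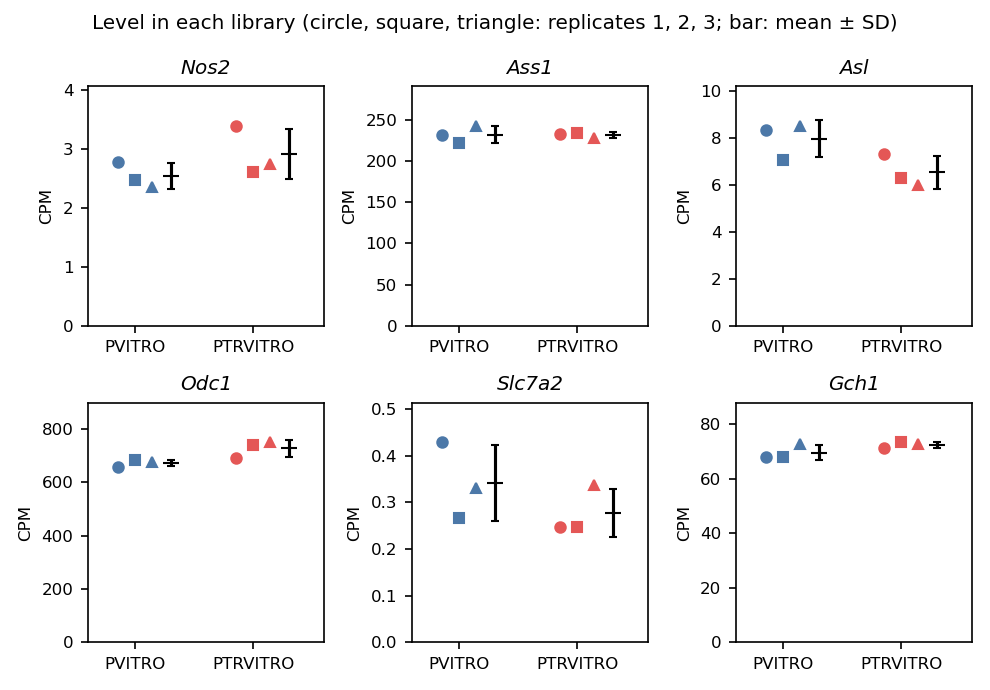
CPM of each of the 6 genes in each of the 6 libraries, on a linear axis from 0 with a scale of its own for each gene. Points are libraries and bars are the mean ± SD of 3. The 2 groups overlap for every gene but Odc1, and the Slc7a2 points rest on 6 to 10 counts each.

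Total counts ran from 17757341 to 32426739 per library, so that 3 counts, taken as the floor for detection, correspond to 0.0925 to 0.168 CPM. Floors cover counting error only. The carcinoma markers Krt8 (1077 and 1086 CPM in PVITRO and PTRVITRO) and Vim (1889 and 1890 CPM) were abundant in both groups. No marker was called. For some markers the libraries of the groups did not overlap, as was so for 17.6% of all tested genes in either direction. Krt18 (log2 fold change 0.17, edgeR, adjusted p = 0.139) and Epcam (0.48, adjusted p = 0.392) were higher in every PTRVITRO library, and Zeb1 (-0.24, adjusted p = 0.292) and Fn1 (-0.18, adjusted p = 0.208) were lower. All 4 tested epithelial markers had a positive log2 fold change, which for Krt8 was only 0.01. Of 5 epithelial markers, Cdh1 had 2 counts in all, and the summed CPM of the 5 ran from 1532 to 1655 in PVITRO and from 1619 to 1700 in PTRVITRO. The 4 mesenchymal markers summed to 8184 to 9054 CPM in PVITRO and 7490 to 7960 CPM in PTRVITRO, a difference that was nearly all Fn1 (6645 and 5866 CPM). Of 11 macrophage and neutrophil markers, Ptprc, Adgre1 and S100a9 had a count of 0 in every library. Lyz2 had 75 counts in all 6 libraries together, S100a8 19, Ly6g 15, Csf1r 4.49, Mrc1 3 and Itgam 2. The list summed to 25.9 to 29.1 CPM in PVITRO and 24.2 to 25.9 CPM in PTRVITRO. Nearly all of that sum was Cd68 and Cd14, and these and Lyz2 were the 3 tested markers of the list, all with a negative log2 fold change. Cd14 (-0.21, edgeR, adjusted p = 0.348) and Lyz2 (-0.53, adjusted p = 0.560, at 0.571 and 0.389 CPM) were lower in every PTRVITRO library. T cell and endothelial markers stayed below the filter on low counts. Whether these marker values bear on the values below was not tested.

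Nos2 (ENSMUSG00000020826.8, chr11:78920787-78960254 on the plus strand of GRCm38) was measured at a low level. The libraries gave 2.78, 2.47 and 2.36 CPM in PVITRO and 3.39, 2.61 and 2.75 CPM in PTRVITRO. PTRVITRO replicate 1 was the highest of the 6, and the remaining PTRVITRO libraries lay within the range of PVITRO, so the groups overlapped. The log2 fold change of PTRVITRO over PVITRO was 0.21 with a standard error of 0.170 and a 95% interval from -0.16 to 0.59 (edgeR, adjusted p = 0.680). On the linear scale this is a ratio of 1.16 with an interval from 0.895 to 1.50. The value rested on PTRVITRO replicate 1, since without it the log2 fold change was 0.08. Between 49 and 110 reads were assigned to Nos2 in a library, which alone gives a counting error of 11.8% at the mean count. The coefficient of variation between libraries was 8.70% in PVITRO and 14.3% in PTRVITRO, so the counting error was of the size of the spread between replicates.

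Gch1 (ENSMUSG00000037580.10, chr14:47153895-47189413, minus strand) encodes GTP cyclohydrolase, which catalyzes the first and limiting step of tetrahydrobiopterin synthesis. It measured 68.0, 67.9 and 72.6 CPM in PVITRO and 71.0, 73.2 and 72.8 CPM in PTRVITRO. PVITRO replicate 3 lay among the PTRVITRO libraries, and the groups overlapped. The log2 fold change was 0.06 ± 0.0422 (SE), with an interval from -0.04 to 0.15 (edgeR, adjusted p = 0.652).

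The pair of enzymes that rebuild arginine from citrulline stood at unequal levels per length, 96.0 CPM per kb for Ass1 and 1.50 CPM per kb for Asl over the 6 libraries. Asl (ENSMUSG00000025533.15, chr5:130011258-130029247, minus strand) measured 8.35, 7.08 and 8.52 CPM in PVITRO and 7.34, 6.28 and 6.005 CPM in PTRVITRO. PTRVITRO replicate 1 exceeded PVITRO replicate 2, so the groups overlapped, while the other two PTRVITRO libraries were below all of PVITRO. Asl was the tested gene of the group with the lowest log2 fold change, -0.27 ± 0.117 (SE), with an interval from -0.53 to -0.01. Its unadjusted p was 0.0424 and its adjusted p 0.420 (edgeR).

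Ass1 (ENSMUSG00000076441.9, chr2:31470207-31520672, plus strand) measured 232, 222 and 242 CPM in PVITRO and 233, 234 and 228 CPM in PTRVITRO. The PTRVITRO values all lay inside the PVITRO range. The group means were 232 ± 10.3 and 231 ± 3.14 CPM, and the interval of the log2 fold change ran from -0.09 to 0.08 (edgeR, adjusted p = 0.987).

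Reads of Ass1 can be confused with those of Gm5424, a processed pseudogene at chr10:62071123-62072362. The transcripts aligned over 1240 bases with 6 differences (99.5% identity), and 911 of 1191 windows of 50 bases (76.5%) held no difference at all. The stretch of 60 coding bases with the most differences is shown for both, 5′ to 3′ and from the transcripts of GENCODE M21, with the 2 differing bases in capitals, since a read must cover such a base to be told apart.
Ass1: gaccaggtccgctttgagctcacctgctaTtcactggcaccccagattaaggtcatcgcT
Gm5424: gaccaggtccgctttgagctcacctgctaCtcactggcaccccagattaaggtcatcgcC
The stretch is bases 572 to 631 of the Ass1 transcript. Gm5424 was assigned 22.2% of the counts of the pair. Their summed level was 300 ± 11.1 CPM in PVITRO and 296 ± 1.61 CPM in PTRVITRO, a log2 ratio of -0.02 (two-sided exact permutation test, p = 0.8, smallest possible 0.1).

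Odc1 (ENSMUSG00000011179.8, chr12:17544794-17551505, plus strand) had the highest level per length of the 6 genes. The PVITRO libraries measured 659, 683 and 677 CPM and the PTRVITRO libraries 691, 740 and 749 CPM. Every PTRVITRO library was above every PVITRO library, by a narrow margin for PTRVITRO replicate 1. The log2 fold change was 0.11 ± 0.0368 (SE), with an interval from 0.03 to 0.19. The unadjusted p was 0.0121, the smallest of the group, and the adjusted p was 0.281 (edgeR).

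Odc1 shares a stretch of at least 200 bases at 95% identity or more with 11 other annotated genes, called copies here. Of these, 10 are in the table. The stretch ran from 320 bases (Gm7450) to 1398 bases (Gm9260), so it can be a part of the copy only. All counts of a copy entered the sum below. The copy with the most counts was Gm7993, a processed pseudogene at chr5:95974240-95975623. Its alignment to the Odc1 transcript covered 1388 columns with 59 differences (95.7% identity), and 438 of 1339 windows of 50 bases (32.7%) were identical. The most divergent stretch of 60 coding bases, bases 1267 to 1326 of the Odc1 transcript, has 6 differences, in capitals.
Odc1: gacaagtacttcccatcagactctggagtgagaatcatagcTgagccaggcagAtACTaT
Gm7993: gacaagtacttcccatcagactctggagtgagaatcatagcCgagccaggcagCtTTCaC
Together the 10 copies held 14.6% of the counts of Odc1 and its copies. The sum was 790 ± 15.3 CPM in PVITRO and 849 ± 32.8 CPM in PTRVITRO, a log2 ratio of 0.10, close to that of Odc1 alone (two-sided exact permutation test, p = 0.1, the smallest possible).

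Slc7a2 (ENSMUSG00000031596.15, chr8:40862396-40922308, plus strand) encodes the cationic amino acid transporter that is induced together with Nos2 in macrophages. It had 10, 8 and 8 counts in PVITRO and 8, 7 and 6 counts in PTRVITRO, or 0.267 to 0.428 CPM and 0.247 to 0.337 CPM. The ranges overlapped. Slc7a2 shares 635 exon bases with Gm26584, a noncoding gene on the opposite strand that had 1 count in all, and since it is not stated whether the counting used the strand of the reads, part of these few counts could come from Gm26584. Slc7a2 did not pass the filter on low counts and was not tested.

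Per kilobase of annotated exon, and averaged over the 6 libraries, the order of levels was Odc1 (206 CPM per kb), Ass1 (96.0), Gch1 (11.3), Asl (1.50), Nos2 (0.618) and Slc7a2 (0.0339). The ranges of all neighbours in this order were separate, although for Slc7a2 the range rests on few counts. The smallest step was from Odc1 to Ass1 (2.14 times) and the largest was from Nos2 to Slc7a2 (18.3 times). With the length of the principal transcript in place of all exons, which moved Asl to 3.44 and Gch1 to 25.6 CPM per kb, the order was the same. Even the smallest step, 2.14 times, was above the ratio of 1.50 at the upper end of the Nos2 interval, the widest of the tested genes. Reads assigned to copies of Odc1 and Ass1 are not part of these levels.

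**Figure D2:**
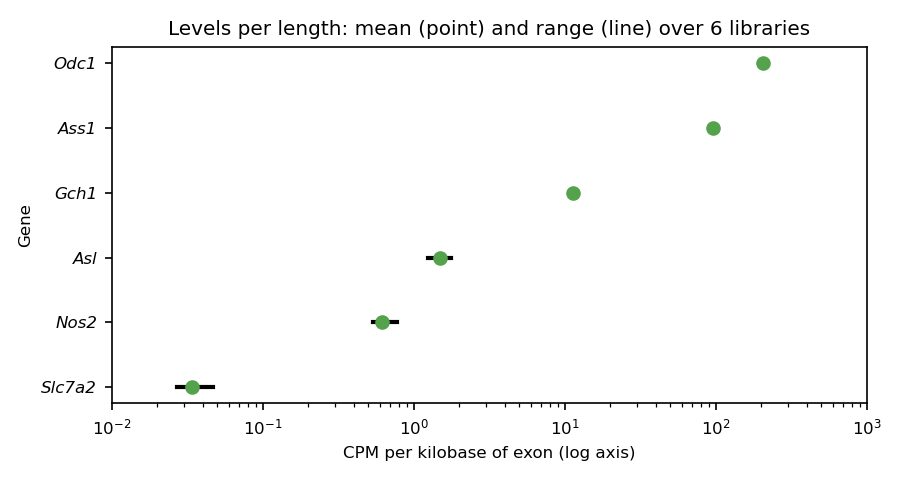
Level of each gene in CPM per kilobase of exon, on a log axis, as the mean (point) and range (line) over 6 libraries. The levels run from 0.0339 for Slc7a2 to 206 for Odc1, and no neighbouring ranges overlap.

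For 74 further genes of the same pathways, 8 had a count of 0 in every library and 60 were tested. With edgeR, 0 of the 60 were called, 2 higher and 7 lower in PTRVITRO had an unadjusted p below 0.05, and the median log2 fold change was -0.02. Over all tested genes the median was -0.004, and 5.26% were higher and 6.13% lower at an unadjusted p below 0.05. The groups did not overlap for 1 gene that was higher and 9 that were lower in PTRVITRO, against 8.27% and 9.33% of all tested genes. The smallest adjusted p among the 60 was 0.262.

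Of 9 further genes of nitric oxide synthesis and sensing, 3 passed the filter on low counts. The neuronal and endothelial synthases Nos1 and Nos3 had 4 and 13.3 counts in all 6 libraries together, and the guanylate cyclase subunits Gucy1a1, Gucy1a2 and Gucy1b1, which sense nitric oxide, had none. The 3 tested genes were the synthase-binding proteins Nosip (log2 fold change -0.03) and Nostrin (-0.04) and the dimethylarginine hydrolase Ddah2 (-0.03).

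Of 6 genes that make or recycle tetrahydrobiopterin, 5 were tested, with log2 fold changes from -0.04 for the dihydropteridine reductase Qdpr to 0.09 for Pts, which catalyzes the step after Gch1. Pts measured 24.5 ± 0.913 CPM in PVITRO and 25.9 ± 2.87 CPM in PTRVITRO (edgeR, adjusted p = 0.708). Gchfr, the feedback regulator of GTP cyclohydrolase, measured 34.1 ± 1.94 and 33.5 ± 1.80 CPM.

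Of the 9 further transport genes, the arginine carrier Slc7a3 had 29 counts in all 6 libraries together and was not tested. The carrier Slc7a1 measured 490 ± 22.6 CPM in PVITRO and 475 ± 15.02 CPM in PTRVITRO, and Slc3a2, the heavy chain of several amino acid exchangers, 705 ± 18.7 and 672 ± 22.9 CPM. Of 8 tested transport genes, the mitochondrial ornithine carrier Slc25a15 had the highest log2 fold change (0.15) and the mitochondrial carrier Slc25a29 the lowest (-0.25). The light chain Slc7a6 had an unadjusted p below 0.05 with a log2 fold change of -0.12 (adjusted p = 0.404 by edgeR).

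The urea cycle was incomplete at the transcript level, as Cps1, Nags and Otc had 0 counts in every library. The 7 tested genes of ornithine and proline metabolism lay between -0.12 and 0.01. The lowest was the pyrroline-5-carboxylate reductase Pycr3, at 48.2 ± 1.51 and 44.3 ± 0.840 CPM (edgeR, adjusted p = 0.323), and the highest was the proline dehydrogenase Prodh. Aldh18a1, which makes the precursor of proline and ornithine from glutamate, measured 368 ± 7.63 and 347 ± 5.91 CPM, a log2 fold change of -0.09 (adjusted p = 0.330). For Pycr3 and Aldh18a1 every PTRVITRO library was below every PVITRO library.

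Of 18 genes of polyamine synthesis, breakdown, transport and use, among them regulators of Odc1, 16 were tested, 7 with a positive and 9 with a negative log2 fold change. The decarboxylase Amd1, which supplies the aminopropyl donor, measured 430 ± 24.01 and 465 ± 20.7 CPM, with a log2 fold change of 0.11 (adjusted p = 0.398 by edgeR), and near-identical copies such as Amd2 make its counts uncertain. Spermidine synthase (Srm) measured 114 ± 3.84 and 106 ± 2.11 CPM, a log2 fold change of -0.10 (adjusted p = 0.344). The catabolic acetyltransferase Sat1 also stood at -0.10 (adjusted p = 0.372), with 332 ± 11.4 and 311 ± 9.75 CPM. The lowest value was that of the polyamine oxidase Paox, -0.37, which rests on 2.86 and 2.20 CPM and shares sequence with Gm19680.

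Of 4 creatine genes, Gatm, which uses arginine in the first step, had 0 counts. The creatine kinase Ckb measured 8.95 ± 0.468 CPM in PVITRO and 10.5 ± 0.398 CPM in PTRVITRO, with a log2 fold change of 0.24 (adjusted p = 0.305 by edgeR), and the transporter Slc6a8 stood at -0.06.

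All 18 transcription factors and receptors of the upstream list were tested, and their log2 fold changes lay between -0.14 and 0.04. The interferon regulatory factor Irf1 was the highest (116 ± 8.54 and 120 ± 3.81 CPM). The interleukin-1 receptor Il1r1 was at -0.14 (95.8 ± 6.99 and 86.9 ± 1.98 CPM, edgeR, adjusted p = 0.315), as was Stat3 (77.1 ± 2.93 and 69.7 ± 2.78 CPM, adjusted p = 0.262). For 3 of the 18 (Il1r1, Stat3 and Ifngr2) the PTRVITRO libraries were all below PVITRO, against 9.33% of all tested genes.

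**Figure D3:**
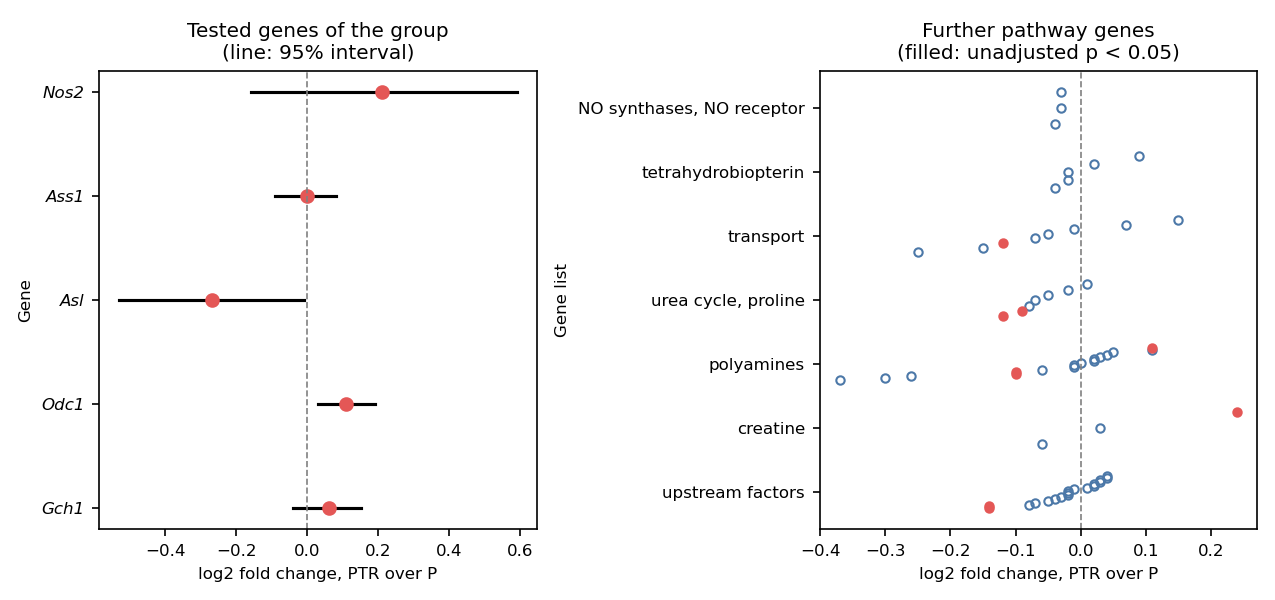
Log2 fold changes of PTRVITRO over PVITRO. Left, the 5 tested genes of the group with their 95% intervals, where those of Nos2, Ass1 and Gch1 include 0. Right, the 60 tested further genes by list, where filled points have an unadjusted p below 0.05 and none passed the adjusted threshold.

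Over the 6 libraries, the genes whose log2 CPM followed that of Nos2 most closely were Rhbdd2 (Pearson r = 0.997), Gm6997 (0.986), Dalrd3 (0.983), Cep41 (0.982) and Zfp780b (0.981), out of 11798 genes compared. These are descriptions over 6 points that share library and depth, 100 genes had an r above 0.9, and the counting error of Nos2 is of the size of its spread. Within the group, Nos2 had r between -0.12 and 0.04 with the other tested genes. The closest pairs were Odc1 with Gch1 (r = 0.72) and, in the opposite direction, Asl with Odc1 (-0.93), all over the same 6 libraries.

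Leaving out 1 library at a time did not bring any of the 5 tested genes to an adjusted p below 0.05. The number at an unadjusted p below 0.05 moved from 2 to between 0 (without PTRVITRO replicate 2) and 2 (without PVITRO replicate 2 or without PTRVITRO replicate 1). Odc1 stayed between 0.09 and 0.15, Asl between -0.37 and -0.22 and Gch1 between 0.04 and 0.09 on the log2 scale. Nos2 ran from 0.08 to 0.30 and was the gene of the group that moved most.

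**Figure D4:**
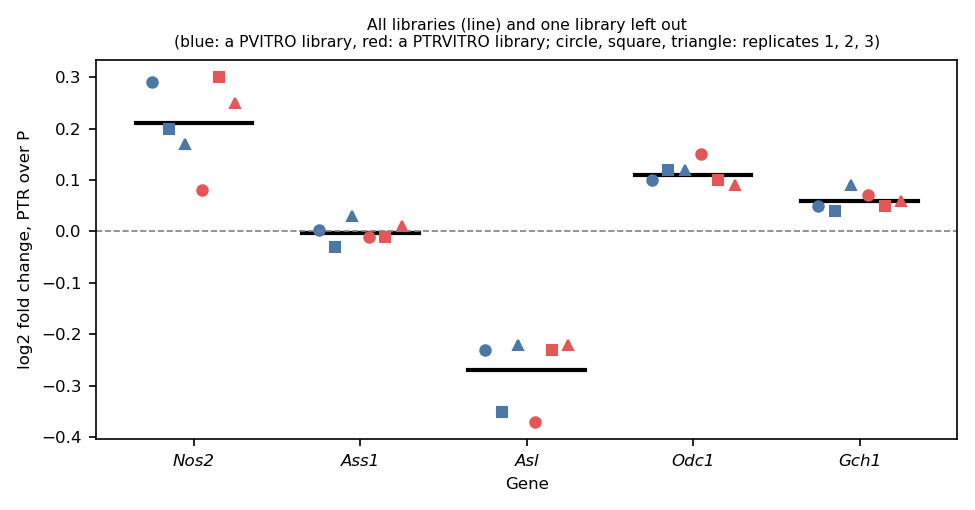
Log2 fold change of each tested gene with all libraries (line) and with 1 library left out (points, by the group and replicate left out). Nos2 is lowest, at 0.08, without PTRVITRO replicate 1, and Ass1 stays within 0.03 of 0.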

How the data were processed

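Poly(A) RNA libraries (TruSeq Stranded mRNA) from 6 EMT6 samples were grouped by the labels, 3 per group. The authors aligned reads with STAR 2.6.0a to GRCm38 and deposited gene-level estimated counts from RSEM 1.3.1, unscaled between samples (FastQC 0.11.5 is also named). Between 12.5% and 13.8% of values per library were not whole, and estimated counts were rounded. Genes were filtered with filterByExpr (minimum count 10, minimum total 15), scaled by the upper quartile and tested with edgeR 4.0.16 in R 4.3.3 (quasi-likelihood F test, group only, Benjamini-Hochberg over all tested genes, calls below 0.05). Standard errors came from the F statistic. Symbols were matched for 53274 of 53465 identifiers in GENCODE M21, whose exons gave gene lengths and positions. Copies were searched with BLAST+ 2.17.0. Correlations used log2 CPM with 0.5 added, over genes with a mean count of at least 50.

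The genes and all lists were chosen with earlier results of these data known. Of the 8 genes of the group, 2 are not reported here, nor are some members of the other lists. Named were the 6 genes, further pathway genes that were called, had an unadjusted p below 0.05 or had the highest or lowest fold change of their list, and the 5 genes most like Nos2. Any other gene was chosen after its values were seen. Alternatives were TMM, no scaling factor, DESeq2 1.42.0, limma-voom (limma 3.58.1), no filter, a minimum of 10 counts in each library, a block for the replicate number, and leaving out each library. The principal transcript length was added after seeing the data. The fits were also run on simulated counts with the same dispersion for every gene, and the outcome is not given here.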

Additional observations from a re-analysis of the deposited data

How the results depend on the processing

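None of the 5 tested genes of the group was called under any alternative. The number of genes called over all genes moved from 35 to 111 with DESeq2, 400 with no filter on low counts, 54 with a minimum of 10 counts in each library and 68 with a replicate block, and to between 8 and 64 with 1 library left out (8 without PTRVITRO replicate 3, 9 without PVITRO replicate 3, 11 without PVITRO replicate 1, 12 without PTRVITRO replicate 2 and 64 without PVITRO replicate 2). The cause was not tested. Same-numbered libraries had deviation correlations of 0.183, 0.0931 and -0.0427. The labels give only the replicate number, and these few values cannot decide whether same-numbered libraries were handled together. The replicate block called 0 of the 5.

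For the log2 fold changes of the 5 genes, 33 of 35 values under another setting and 27 of 30 with 1 library left out kept direction and call. The exceptions were all Ass1, whose value lies at 0. It turned to 0.01 with no scaling factor and 0.0014 with DESeq2, and ran from -0.03 to 0.03 with 1 library left out (0.002 without PVITRO replicate 1, 0.03 without PVITRO replicate 3 and 0.01 without PTRVITRO replicate 3). The sum of Ass1 and its copy ran from -0.04 to 0.01 in the same way, turning to 0.01 without PVITRO replicate 3. Adjusted p for Nos2 lay between 0.634 and 0.943 over all alternatives. Depth limits Nos2 and Slc7a2 most.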

Other observations

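Arginine is also charged onto tRNA, methylated and converted to citrulline in proteins. A list of 12 genes for these uses, written after the other results had been seen, was tested in full. With edgeR, 0 of the 12 were called, 1 higher and 2 lower in PTRVITRO had an unadjusted p below 0.05, and the median log2 fold change was -0.03. Of all tested genes 0.246% were called, and 5.26% were higher and 6.13% lower at an unadjusted p below 0.05. The groups did not overlap for 2 genes that were higher (Rars and Padi1) and 4 that were lower (Carm1, Prmt5, Prmt7 and Padi3) in PTRVITRO, against 8.27% and 9.33% of all tested genes. The arginyl-tRNA synthetase Rars measured 419 ± 14.04 CPM in PVITRO and 472 ± 10.4 CPM in PTRVITRO, a log2 fold change of 0.17 with the smallest adjusted p of the list, 0.0919. Among the arginine methyltransferases, the log2 fold changes were -0.12 for Carm1 (adjusted p = 0.235 by edgeR), -0.16 for Prmt7 (adjusted p = 0.301) and -0.08 for Prmt5 (adjusted p = 0.503). The peptidylarginine deiminase Padi1 had a log2 fold change of 0.33 at 3.24 and 4.07 CPM (adjusted p = 0.471), but Gm13032, which is identical to it over 1075 bases, held 484 counts against 575 for Padi1, so the value is uncertain. Padi3 measured 139 ± 4.77 and 134 ± 1.07 CPM.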
